A study of Mus musculus with 6 samples.

Results

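The cone opsins and the cone phototransduction genes are the set of genes with which a cone photoreceptor turns light into an electrical signal. The genes were chosen by symbol, and each of the 10 chosen symbols, *Opn1sw*, *Opn1mw*, *Arr3*, *Gnat2*, *Gngt2*, *Gnb3*, *Pde6c*, *Pde6h*, *Cnga3* and *Cngb3*, had 1 row among the 11339 genes of the deposited table, so 10 of 10 passed the authors' filter on low counts. The study deleted *Mll1* (*Kmt2a*), which encodes a histone H3 lysine 4 methyltransferase, in the developing mouse retina, and sequenced RNA of whole retina. The 3 *Mll1KO* samples carried MLL1 fl/fl with Chx10-Cre, the 3 *WT* samples were wild type, and all 6 were labelled as strain C57Bl6/J at age P14, 14 days after birth. Cre was driven by the *Chx10* promoter, active in retinal progenitors, so that the deletion was not restricted to cones. Each sample pooled 2 retinas, and the *WT* samples are not described as littermates of the *Mll1KO* samples.

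A cone detects light with an opsin, which activates the G protein transducin. Transducin relieves the inhibition of a phosphodiesterase, cyclic GMP falls, and cyclic nucleotide-gated channels close, after which cone arrestin quenches the opsin. Mouse cones make a short-wavelength opsin from *Opn1sw*, a medium-wavelength opsin from *Opn1mw*, or both, and rods use a parallel cascade encoded largely by other genes.

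RNA levels are given as RPKM, the reads of a gene relative to the length of its exons and to the reads of the library. Library totals recovered from these values ran from 17961097 reads in *Mll1KO* sample c to 23836033 in *WT* sample a, and the reads on 1 cone gene in 1 library ran from 236 for *Cngb3* to 12120 for *Gnb3*. Groups were compared with limma on log2(RPKM + 1) over all 11339 genes, with Benjamini-Hochberg adjusted p and a threshold of 0.05. Fold changes are therefore on the log2(RPKM + 1) scale, which understates changes of low genes.

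The targeted gene followed the labels. *Kmt2a* had an RPKM of 36.1, 36.9 and 34.6 in *WT* replicates a, b and c, whereas it was at 22.9, 20.4 and 22.3 in *Mll1KO* replicates a, b and c. The groups did not overlap, and the log2 fold change was -0.69 (SE 0.05, limma adjusted p = 2.77e-05). The loxP sites flank exons that encode nuclear localization signals, and the value of the whole gene also counts reads from the other exons.

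*Mll1KO* sample b stood apart in *Xist*, the RNA of the inactive X chromosome, which was singled out after its values were seen. *Xist* had an RPKM of 71.7, 75.8 and 72.5 in the *WT* samples and of 129.6, 0.590 and 127.7 in *Mll1KO* samples a, b and c. The *WT* samples were alike, and no *Mll1KO* sample lay near them. The labels do not give the sex of the pooled retinas, and the methods state that animals of both sexes were used. The sex makeup of each sample is thus not stated and may differ between samples and between the groups. *Opn1mw* and *Arr3* are the 2 cone genes of the set on the X chromosome, and in both the value of *Mll1KO* sample b lay between those of samples a and c. Of the 371 X-linked genes, 19.9% were called with all 6 libraries, with a median log2 fold change of -0.02, and 14.8% without *Mll1KO* sample b, again with a median of -0.02, against 23.3% and 17.2% of all genes.

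Of the 10 cone genes, 7 were called higher and 1 lower in *Mll1KO* retinas, while *Gngt2* and *Gnb3* were not called. Over all genes 23.3% were called, 8.81% higher and 14.5% lower. The median log2 fold change of the 10 genes was 0.28 and that of all genes was -0.03. The groups did not overlap for 8 of the 10 genes, against 41.1% of all genes. Without *Mll1KO* sample b, 7 of the 10 genes were called. RNA of whole retina was measured, so more or fewer cones among the cells and more or less RNA per cone cannot be told apart.

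The values rest on the authors' scaling to library totals. Of all genes called, 37.8% were higher in *Mll1KO*, and 53.1% were after median-of-ratios scaling and 51.9% after TMM scaling, both of which left 7 cone genes higher and 1 lower. With every library brought to the same total RPKM of the 10 rod counterparts, the median of all genes moved to -0.33. On that scale *Opn1mw* (0.22) and *Arr3* (0.32) were higher, *Opn1sw* (-0.78), *Gngt2* (-0.44) and *Gnb3* (-0.36) were lower, *Gnat2*, *Pde6h* and *Cnga3* turned to slightly below 0, and *Pde6c* and *Cngb3* lost their calls (log2 fold changes).

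**Figure D1:**
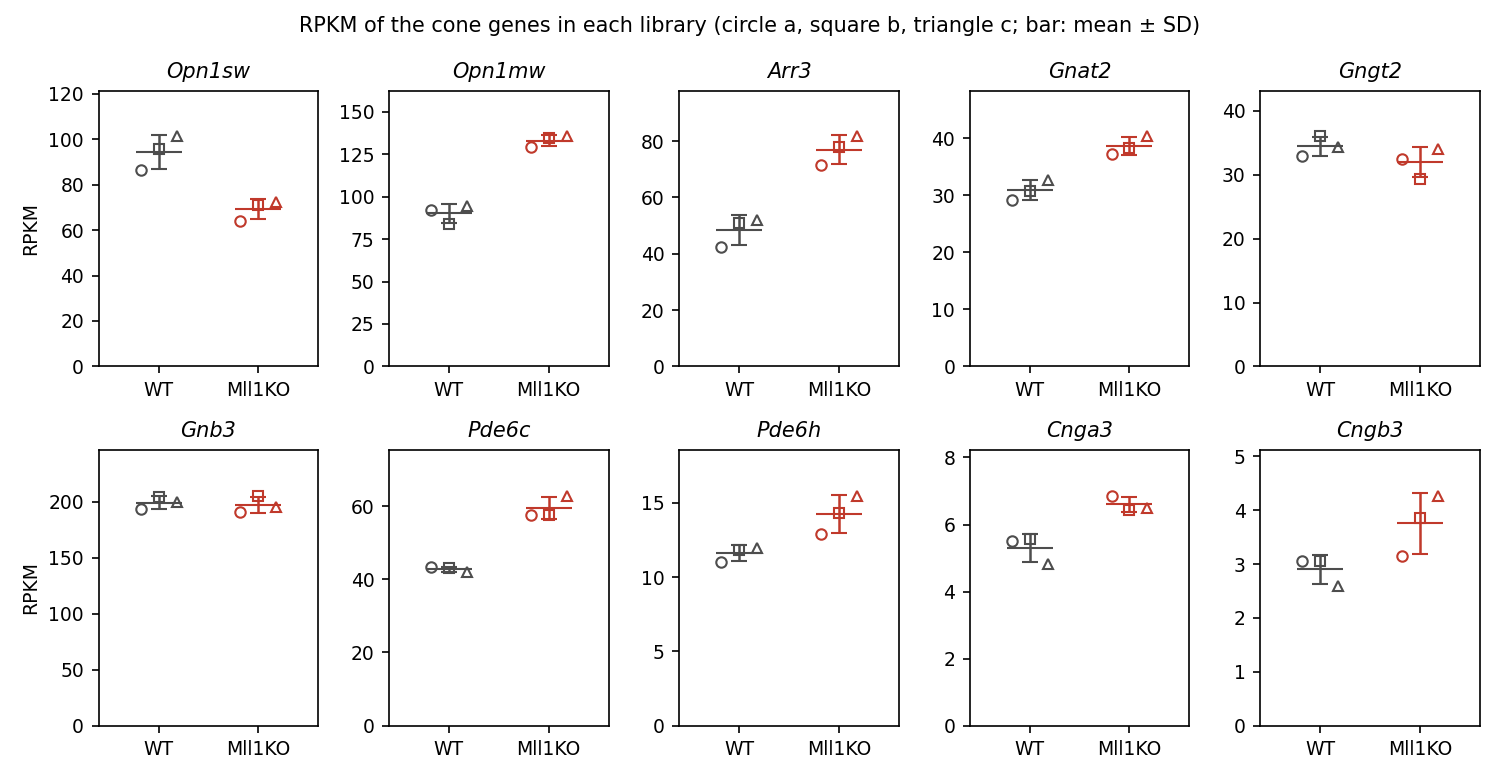
RPKM of each of the 10 cone genes (vertical axes from 0, a scale of its own for each gene) in the 3 *WT* samples (gray) and the 3 *Mll1KO* samples (red), with the group mean and SD as bars. *Opn1sw* is lower in each *Mll1KO* sample than in each *WT* sample, *Gngt2* and *Gnb3* overlap between groups, and the other 7 genes are higher in each *Mll1KO* sample, of which *Gnat2*, *Pde6h* and *Cnga3* turned below 0 after scaling to the rod counterparts.

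The opsins moved in opposite directions. *Opn1sw* (ENSMUSG00000058831, chromosome 6, from 29376671 to 29388468 in GRCm38, minus strand), the short-wavelength opsin gene, had an RPKM of 86.3, 95.7 and 101 in *WT* replicates a, b and c, and of 64.1, 70.8 and 72.3 in *Mll1KO* samples a, b and c. Each *Mll1KO* value lay below the lowest *WT* value, and replicate a was the lowest of its group in both. The mean fell from 94.4 ± 7.53 RPKM (SD, n = 3) to 69.1 ± 4.38 RPKM (SD, n = 3), with a log2 fold change of -0.44 (SE 0.06, limma adjusted p = 0.00121). It ranked 214 from the lowest fold change of the 11339 genes.

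*Opn1mw* (ENSMUSG00000031394, chromosome X, from 74127464 to 74150760, plus strand), the medium-wavelength opsin gene, had an RPKM of 92.0, 84.0 and 94.6 in *WT* and of 129.1, 134.4 and 135.4 in *Mll1KO*. The lowest *Mll1KO* value exceeded the highest *WT* value by far more than the spread within either group. The mean rose 1.47-fold, from 90.2 ± 5.56 (SD, n = 3) to 133.0 ± 3.38 (SD, n = 3), with a log2 fold change of 0.56 (SE 0.05, limma adjusted p = 8.29e-05).

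The ratio of *Opn1sw* to *Opn1mw* RPKM within a library does not depend on how that library was scaled. It was 0.937, 1.14 and 1.07 in *WT* replicates a, b and c, whereas *Mll1KO* replicates a, b and c had 0.496, 0.527 and 0.534. The *WT* libraries held the opsin RNAs at near equal levels per length, whereas in *Mll1KO* libraries the medium-wavelength RNA predominated, with no overlap between groups. The mean log2 ratio went from 0.06 ± 0.14 (SD, n = 3) among *WT* to -0.95 ± 0.06 (SD, n = 3) among *Mll1KO* libraries, a difference of -1.01 (two-sided exact permutation test, p = 0.1, the lowest value possible with 3 samples on each side). The ratio was lower in 3 of 3 *Mll1KO* samples.

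The summed RPKM of both opsins differed less than either opsin. It was 178.3, 179.7 and 195.8 in *WT* and 193.2, 205.2 and 207.8 in *Mll1KO*, with the groups overlapping. The sum averaged 184.6 ± 9.72 RPKM (SD, n = 3) among *WT* and 202.1 ± 7.75 RPKM (SD, n = 3) among *Mll1KO* samples.

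The level of the ratio, but not its difference between groups, depends on the gene lengths behind RPKM. *Opn1sw* was counted over 2557 bases, the union of its annotated exons, while its annotated transcripts run from 408 to 2410 bases, and *Opn1mw* was counted over 1562 bases, with transcripts from 530 to 1233. In reads without length, *Opn1sw* had 5259, 4840 and 4999 in *WT* samples a, b and c, where *Opn1mw* had 3427, 2594 and 2856. In *Mll1KO* samples a, b and c, *Opn1sw* had 3827, 3597 and 3321 reads and *Opn1mw* had 4710, 4168 and 3800. *Opn1sw* thus had the larger number of reads in every *WT* library and the smaller in every *Mll1KO* library, at ratios of 1.53, 1.87 and 1.75 against 0.813, 0.863 and 0.874.

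The downstream end of *Opn1sw* overlaps *Calu* on the opposite strand, and 397 of its 2557 exon bases (15.5%) are also exon bases of *Calu*. *Calu*, which encodes the calcium-binding protein calumenin, averaged 25.4 ± 0.478 RPKM (SD, n = 3) among *WT* and 22.3 ± 0.557 RPKM (SD, n = 3) among *Mll1KO* samples, with a log2 fold change of -0.18 (SE 0.04, limma adjusted p = 0.01). Whether strand was used in counting is not given in the sources used here, so reads of the shared bases cannot be assigned to either gene.

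**Figure D2:**
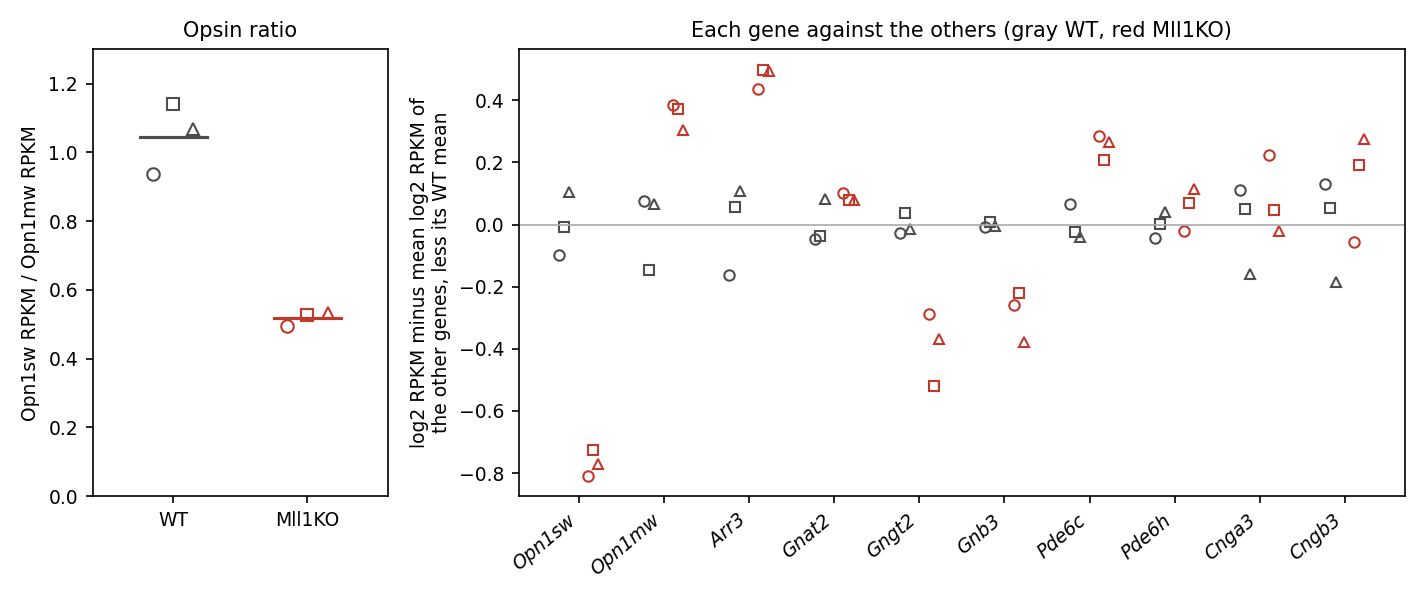
Left, the ratio of *Opn1sw* to *Opn1mw* RPKM in each library, with lines at the geometric means of 1.05 in *WT* (gray) and 0.519 in *Mll1KO* (red). Right, log2 RPKM of each gene minus the mean log2 RPKM of the other 9 genes in the same library, set to 0 at the *WT* mean, where *Opn1sw*, *Gngt2* and *Gnb3* lie lower and *Opn1mw*, *Arr3* and *Pde6c* higher in *Mll1KO* without overlap.

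*Arr3* (ENSMUSG00000060890, chromosome X, from 100605497 to 100618493), which encodes cone arrestin, had an RPKM of 42.4, 51.0 and 51.9 in *WT* and of 71.4, 77.8 and 81.6 in *Mll1KO*. As for *Opn1sw*, replicate a was the lowest of its group in both, and the groups stayed apart. The log2 fold change of 0.66 (SE 0.08, limma adjusted p = 0.000358) was the highest of the 10 genes and ranked 69 from the highest of the 11339. Its mean rose 1.59-fold.

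The 3 subunits of cone transducin did not move together. *Gnat2* (ENSMUSG00000009108, chromosome 3), the alpha subunit that binds the phosphodiesterase, had an RPKM of 29.2, 30.9 and 32.8 in *WT* and of 37.2, 38.4 and 40.3 in *Mll1KO*. Every *Mll1KO* sample was above every *WT* sample, and the log2 fold change was 0.31 (SE 0.05, limma adjusted p = 0.00222), although it turned to -0.02 after scaling to the rod counterparts. *Gnb3* (ENSMUSG00000023439, chromosome 6), the beta subunit, had an RPKM of 193.2, 204.5 and 200.2 in *WT* and of 191.1, 205.4 and 195.7 in *Mll1KO*, interleaved between the groups. Its log2 fold change was -0.01 (SE 0.04, limma adjusted p = 0.854), with a 95% interval from -0.11 to 0.09, and it turned to 0.02 after median-of-ratios or TMM scaling. *Gngt2* (ENSMUSG00000038811, chromosome 11), the gamma subunit, had an RPKM of 33.0, 36.0 and 34.4 in *WT* and of 32.4, 29.4 and 34.0 in *Mll1KO*, where *Mll1KO* sample c lay within the *WT* values. Its log2 fold change was -0.11 (SE 0.06, limma adjusted p = 0.206), with a 95% interval from -0.23 to 0.02. Thus the intervals of *Gnb3* and *Gngt2* lie below that of *Gnat2*, which ran from 0.20 to 0.42. *Gngt2* shares 234 of its 1877 exon bases (12.5%) with *Abi3* on the opposite strand, which had no row. As for *Opn1sw*, reads of the shared bases cannot be assigned to either gene.

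The RPKM ratio of *Gnat2* to *Gnb3* was 0.151, 0.151 and 0.164 in *WT* and 0.195, 0.187 and 0.206 in *Mll1KO*, and that of *Gnat2* to *Gngt2* was 0.887, 0.858 and 0.953 in *WT* and 1.15, 1.31 and 1.19 in *Mll1KO*. Both ratios were higher in each *Mll1KO* library than in each *WT* library. The ratio of alpha to beta subunit RNA was far below 1 in every library, and *Gnb3* is also known from ON bipolar cells. Of 14 ON bipolar genes, 6 were called lower and none higher, beside 14.5% and 8.81% of all genes, with a median log2 fold change of -0.12. They ranged from *Isl1*, a homeobox factor, at a log2 fold change of -0.54 (SE 0.06, limma adjusted p = 0.000183) to *Rgs11*, a regulator of G protein signalling, at 0.12 (SE 0.04, limma adjusted p = 0.066), which was called higher after median-of-ratios or TMM scaling and turned to -0.21 after scaling to the rod counterparts. The 4 ON bipolar markers *Grm6*, *Trpm1*, *Prkca* and *Pcp2*, of which *Grm6* was the most abundant and none was at 0, summed to an RPKM of 237.8, 239.5 and 238.2 in *WT* and of 211.5, 201.8 and 203.5 in *Mll1KO*. Their part in the value of *Gnb3* was not tested.

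The phosphodiesterase genes were both higher. *Pde6c* (ENSMUSG00000024992, chromosome 19), the catalytic subunit, had an RPKM of 43.4, 43.0 and 42.0 in *WT* and of 57.7, 57.6 and 62.8 in *Mll1KO*. The *WT* values lay close together, and all *Mll1KO* values were well above them, with a log2 fold change of 0.46 (SE 0.04, limma adjusted p = 0.000114). *Pde6h* (ENSMUSG00000064330, chromosome 6), the inhibitory subunit, had an RPKM of 11.0, 11.9 and 12.0 in *WT* and of 12.9, 14.3 and 15.5 in *Mll1KO*. The groups lay near each other without overlap, and the log2 fold change was 0.27 (SE 0.07, limma adjusted p = 0.0159). The call of *Pde6h* was lost without *WT* sample a (limma adjusted p = 0.057) and without *Mll1KO* sample c (limma adjusted p = 0.06), and its sign turned after scaling to the rod counterparts (-0.05, limma adjusted p = 0.566), which was the highest p of its alternatives, the lowest being 0.00452.

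The ratio of *Pde6c* to *Pde6h* RPKM was 3.95, 3.63 and 3.51 in *WT* and 4.47, 4.03 and 4.06 in *Mll1KO*, higher in each *Mll1KO* library. The level of this ratio rests on the length of *Pde6h*, which was counted over 7710 bases, whereas its longest annotated transcripts have 2318 and 5940 bases. In reads, *Pde6h* had 2018, 1807 and 1783 in *WT* and 2323, 2189 and 2142 in *Mll1KO*, about as many as *Gnat2*, whose RPKM was higher by more than the spread between samples.

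Both subunits of the cone channel had low RPKM. *Cnga3* (ENSMUSG00000026114, chromosome 1), which can form the channel on its own, had an RPKM of 5.52, 5.57 and 4.82 in *WT* and of 6.86, 6.44 and 6.50 in *Mll1KO*. The groups did not overlap, with a log2 fold change of 0.27 (SE 0.06, limma adjusted p = 0.0118), which turned to -0.02 after scaling to the rod counterparts. *Cngb3* (ENSMUSG00000056494, chromosome 4), the modulatory subunit, had an RPKM of 3.06, 3.05 and 2.59 in *WT* and of 3.15, 3.85 and 4.27 in *Mll1KO*. Here *Mll1KO* sample a lay just above *WT* samples a and b, while samples b and c were clearly higher.

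The log2 fold change of *Cngb3* was 0.28 (SE 0.09, limma adjusted p = 0.047), the weakest call among the 10 genes. It was lost without any of the *WT* samples a, b or c (limma adjusted p = 0.0763, 0.079 and 0.137) and without *Mll1KO* sample b or c (limma adjusted p = 0.113 and 0.153), and over its alternatives p ran from 0.00911 to 0.845. With replicate letter as a block the limma adjusted p was 0.0817. *Cngb3* had between 236 and 361 reads in a library, and at 236 reads counting error alone has a coefficient of variation of 6.51%, against 9.14% between *WT* samples and 15.1% between *Mll1KO* samples. The ratio of *Cnga3* to *Cngb3* RPKM was 1.81, 1.83 and 1.86 in *WT* and 2.18, 1.67 and 1.52 in *Mll1KO*, overlapping between the groups and more variable in *Mll1KO*.

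Among the *WT* samples *Gnb3* had the highest RPKM of the 10 genes, at 199.3 ± 5.72 (SD, n = 3). *Opn1sw* and *Opn1mw* followed with overlapping values, then *Arr3* and *Pde6c* (42.8 ± 0.688, SD, n = 3), which also overlapped. Below these came *Gngt2* (34.5 ± 1.50, SD, n = 3), *Gnat2* (31.0 ± 1.77, SD, n = 3), *Pde6h*, *Cnga3* and *Cngb3*, each apart from its neighbours. In *Mll1KO* the order of RPKM differed in its middle part. *Opn1mw* came next to *Gnb3*, *Arr3* (76.9 ± 5.18, SD, n = 3) overlapped with *Opn1sw*, and *Gnat2* (38.6 ± 1.59, SD, n = 3) stood above *Gngt2* (32.0 ± 2.35, SD, n = 3).

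To compare proportions independently of library scaling, each gene was set against the mean log2 RPKM of the other 9 in its library. In 3 of 10 genes, *Arr3* (difference 0.48), *Opn1mw* (0.35) and *Pde6c* (0.25), the relative level was higher in each *Mll1KO* library than in each *WT* library. In 3 others, *Opn1sw* (-0.77), *Gngt2* (-0.39) and *Gnb3* (-0.29), it was lower in each. These 6 differences had an exact permutation p of 0.1, the smallest possible, among 10 compared. Such a count was not made for other sets of genes, so this one has no background. The 10 differences offset each other by construction, so a gene that kept its level lies lower where most others rose. On library totals *Gngt2* (log2 fold change -0.11) and *Gnb3* (-0.01) were not called. *Gnat2* (0.09), *Pde6h* (0.05), *Cnga3* (0.08) and *Cngb3* (0.14) overlapped between groups, with exact permutation p of 0.3, 0.3, 0.6 and 0.4. Without *Mll1KO* sample a, *Pde6h* (0.09) and *Cngb3* (0.23) did not overlap either, which made 8 of 10. *Gnat2* came apart without *WT* sample c (0.13) and on log2(RPKM + 1) (0.10), which made 7 in each. With libraries paired by replicate letter 7 genes differed in the same direction in every pair, with *Pde6h* rather than *Gnat2* as the added gene.

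Most rod counterparts were higher as well. Of 10, 8 were called higher and none lower, beside 8.81% and 14.5% of all genes. Their median log2 fold change was 0.25. After scaling to their own sum, 6 of the 10 turned below 0. That scaling holds their sum equal in every library, so this count does not bear on whether they were higher. *Gnb1* had a log2 fold change of 0.23 (SE 0.06, limma adjusted p = 0.0227), lost with replicate letter as a block (limma adjusted p = 0.0603) and without *WT* sample b or *Mll1KO* sample b or c (limma adjusted p = 0.0807, 0.0868 and 0.0615), with p from 0.0014 to 0.118 over its alternatives. *Gnat1* lost its call without *WT* sample b (limma adjusted p = 0.0512). *Pde6b* (0.10) and *Cngb1* (0.06) were not called.

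The 8 cone genes other than the opsins were each set against a rod counterpart in the same library. *Arr3* was higher relative to *Sag*, the rod arrestin gene, in each *Mll1KO* library (log2 difference 0.47). *Gngt2* was lower relative to *Gngt1* (-0.47), and *Gnb3* was lower relative to *Gnb1* (-0.25). These 3 of 8 pairs did not overlap between groups (exact permutation p = 0.1, the smallest possible). The share of all gene pairs without overlap was not computed, so this count has no background. The other 5 pairs overlapped, among them *Pde6c* with *Pde6a*, the rod catalytic subunit, which differed by -0.01 (exact permutation p = 1). *Gnat2* with *Gnat1* differed by -0.07 (exact permutation p = 0.6), *Pde6h* with *Pde6g* by 0.06 (p = 0.5 in the same exact test), *Cnga3* with *Cnga1* by 0.05 (exact permutation p = 0.7) and *Cngb3* with *Cngb1* by 0.30 (exact permutation p = 0.2). Without *Mll1KO* sample a, 5 of the 8 pairs did not overlap, as *Pde6h* with *Pde6g* (0.12) and *Cngb3* with *Cngb1* (0.43) came apart too. *Gnat2* with *Gnat1* (-0.16) came apart without *WT* sample a, and *Cngb3* with *Cngb1* (0.33) without *WT* sample b. With libraries paired by replicate letter, *Cngb3* with *Cngb1* differed in the same direction in every pair.

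**Figure D3:**
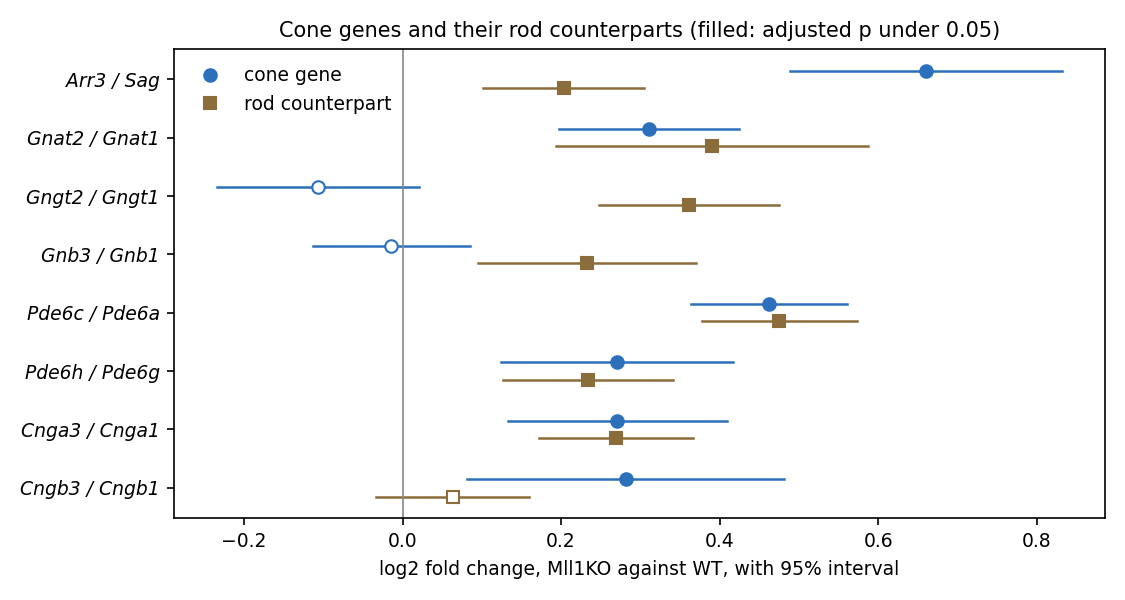
Log2 fold change of RNA in *Mll1KO* against *WT*, with 95% intervals from limma, for the 8 cone genes other than the opsins (blue circles) and their rod counterparts (brown squares), filled where the adjusted p was under 0.05. *Gngt2* and *Gnb3* are the cone genes shown whose intervals include 0, and under scaling to the rod counterparts *Gnat2*, *Pde6h*, *Cnga3*, *Sag*, *Gnb1*, *Pde6g*, *Cnga1* and *Cngb1* turned below 0.

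Cones and rods share or parallel each other in the genes that restore the dark state, and 9 of 17 such genes were called higher and none lower, beside 8.81% and 14.5% of all genes, with a median log2 fold change of 0.19. *Guca1a*, which encodes a calcium-dependent activator of guanylate cyclase used in both cell types, averaged 144.2 ± 22.7 RPKM (SD, n = 3) among *WT* and 421.4 ± 39.1 RPKM (SD, n = 3) among *Mll1KO* samples, a 2.92-fold rise (log2 fold change 1.55, SE 0.10, limma adjusted p = 1.43e-05). At the other end of the list *Rd3*, an inhibitor of guanylate cyclase, had a log2 fold change of 0.02 (SE 0.07, limma adjusted p = 0.878). Of 6 other cone-enriched genes, 3 of which also stand in another list, 1 was called (16.7%, below the 23.3% of all genes), and their median log2 fold change was 0.04. This was *Sall3*, a zinc finger factor known from cones and horizontal cells, with a log2 fold change of -0.36 (SE 0.06, limma adjusted p = 0.00256), and *Kcne2*, a potassium channel subunit, had the highest value of the 6, 0.18 (SE 0.07, limma adjusted p = 0.079), called higher without *Mll1KO* sample a and below 0 after scaling to the rod counterparts.

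Of 16 factors known to act on opsin genes, 8 were called lower and 2 higher, with a median log2 fold change of -0.20. Among all genes, lower calls were also the more frequent, at 14.5% against 8.81% higher, a balance that median-of-ratios scaling turned to 53.1% of calls higher. Whole retina was measured, so the cells in which a factor fell or rose cannot be told apart. *Nr2f2* and *Nr2f1*, orphan nuclear receptors with graded expression over the dorsoventral axis of the retina, had log2 fold changes of -0.56 (SE 0.06, limma adjusted p = 0.00028) and -0.37 (SE 0.06, limma adjusted p = 0.00163). *Nr2f2* had an RPKM of 6.91, 6.19 and 6.37 in *WT* and of 4.37, 3.81 and 4.10 in *Mll1KO*, without overlap. *Samd7*, a photoreceptor polycomb component, had a log2 fold change of -0.52 (SE 0.08, limma adjusted p = 0.00141), and *Nr2e3*, a rod factor that represses cone genes, of -0.36 (SE 0.08, limma adjusted p = 0.00946). *Otx2* (-0.35), *Pias3* (-0.34), *Rorb* (-0.26) and *Neurod1* (-0.23) were the other 4 that fell. The call of *Neurod1* (limma adjusted p = 0.0297) was lost after median-of-ratios or TMM scaling (0.0663 and 0.0625) and without *WT* sample a or b or *Mll1KO* sample b or c (0.0858, 0.0739, 0.0948 and 0.0513), and its lowest p was 5.65e-06.

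The 2 regulators that rose were *Esrrb*, at a log2 fold change of 0.37 (SE 0.05, limma adjusted p = 0.000697), and *Nrl*, the leucine zipper factor of rods, at 0.24 (SE 0.06, limma adjusted p = 0.0158). Under scaling to the rod counterparts *Nrl* turned to -0.10 and *Esrrb* lost its call, and the call of *Nrl* was also lost without *Mll1KO* sample b or c (limma adjusted p = 0.0606 and 0.0639, within a range from 0.00196 to 0.161). *Crx*, the homeobox factor of photoreceptors, averaged 344.1 ± 17.7 RPKM (SD, n = 3) among *WT* and 322.7 ± 25.4 RPKM (SD, n = 3) among *Mll1KO* samples, with overlapping groups (log2 fold change -0.09, SE 0.06, limma adjusted p = 0.321), and was called lower only after scaling to the rod counterparts.

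Thyroid hormone signalling is known to set which opsin a cone makes. Of 7 genes of hormone receptors, transport and conversion, 5 were in the table and 2 were called, both lower, with a median log2 fold change of 0.03, while *Dio3* and *Slc16a10* were not analysed here. These 2 of 5 stand beside 23.3% of all genes called and 14.5% called lower. In RNA of whole retina the cells behind these calls cannot be told apart. *Crym*, which encodes a cytosolic thyroid hormone-binding protein, had an RPKM of 32.0, 38.7 and 35.6 in *WT* and of 17.4, 17.1 and 17.9 in *Mll1KO*. Each *Mll1KO* value was well below each *WT* value, with a log2 fold change of -0.98 (SE 0.06, limma adjusted p = 1.32e-05). *Thra*, a hormone receptor gene that shares 5.7% of its exon bases with *Nr1d1*, had a log2 fold change of -0.18 (SE 0.04, limma adjusted p = 0.011). *Thrb*, which encodes the receptor that cones use and was named after its values were seen, had an RPKM of 16.7, 15.5 and 15.9 in *WT* and of 16.4, 17.2 and 17.3 in *Mll1KO*, overlapping between groups (log2 fold change 0.08, 95% interval -0.03 to 0.18, limma adjusted p = 0.257). After scaling to the rod counterparts *Thrb* turned to -0.25 and was called lower (limma adjusted p = 0.0014), the lowest p of its alternatives, of which the highest was 0.537.

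Retinal pigment epithelium adhering to a dissected retina would add RNA of its own. Of its 4 markers *Rpe65*, *Best1*, *Lrat* and *Ttr*, *Ttr* had a row, with an RPKM of 75.1, 65.8 and 101 in *WT* and of 54.8, 93.7 and 53.9 in *Mll1KO*, overlapping between groups. Of 6 genes of the pigment epithelium list 3 were in the table and none was called, beside 23.3% of all genes, from *Ttr* at a log2 fold change of -0.28 (limma adjusted p = 0.358) to *Rdh5* at 0.16 (limma adjusted p = 0.554). *Ttr* was called lower without *Mll1KO* sample b (limma adjusted p = 0.0313) and after scaling to the rod counterparts (limma adjusted p = 0.0027), and over its alternatives p reached 0.753.

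The genes whose pattern over the 6 libraries was most like an opsin were found by the root mean square difference of log2(RPKM + 1), each gene centred on its own mean. For *Opn1sw* these were *Rimklb* (0.04), *C1qtnf6* (0.06), *Efna5* (0.06), *Basp1* (0.06) and *Traf4* (0.06). *Rimklb* lies on the same chromosome as *Opn1sw* and had an RPKM of 14.8, 16.6 and 17.4 in *WT* and of 10.9, 12.2 and 13.3 in *Mll1KO*, with replicate a the lowest of each group as in *Opn1sw*. For *Opn1mw* they were *Phyhip* (0.03), *Gprc5b* (0.03), *Nap1l5* (0.03), *Nrsn1* (0.03) and *Bcl6* (0.03). *Nap1l5* had an RPKM of 68.6, 66.5 and 74.5 in *WT* and of 97.7, 102.0 and 103.7 in *Mll1KO*, with the order of the libraries matching that of *Opn1mw*. No cone gene of the set was among either 5.

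RefSeq promoters of build GRCm38.p6, which run from 250 bases before to 50 bases after a gene's start, were given for 6 of the 10 genes, and for *Gngt2*, *Gnb3*, *Pde6c* and *Cngb3* none was given. The letters AGGTCA, a nuclear receptor half-site, were searched on both strands, as were TAATCC, the core of CRX and OTX2 sites. AGGTCA was found in 1 of the 6 genes, *Opn1sw*, where it began 202 bases before the start on the gene's strand and 132 bases before it on the other strand, and 16.3% of 32851 promoters hold it. TAATCC was found in *Gnat2*, on the strand opposite to the gene, and 7.06% of promoters hold it. A match describes letters in this window and does not show binding. The 250 bases before the start of the opsin genes are shown because these genes moved in opposite directions. *Opn1sw* is from chr6:29380514-29380763 on the minus strand and *Opn1mw* from chrX:74127216-74127465 on the plus strand, with AGGTCA or its reverse complement TGACCT in capitals.
Opn1sw: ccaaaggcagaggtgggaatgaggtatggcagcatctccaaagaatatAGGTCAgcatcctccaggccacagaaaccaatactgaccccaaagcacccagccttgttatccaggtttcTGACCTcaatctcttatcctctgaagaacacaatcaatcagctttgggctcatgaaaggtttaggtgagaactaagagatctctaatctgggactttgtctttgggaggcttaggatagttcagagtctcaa
Opn1mw: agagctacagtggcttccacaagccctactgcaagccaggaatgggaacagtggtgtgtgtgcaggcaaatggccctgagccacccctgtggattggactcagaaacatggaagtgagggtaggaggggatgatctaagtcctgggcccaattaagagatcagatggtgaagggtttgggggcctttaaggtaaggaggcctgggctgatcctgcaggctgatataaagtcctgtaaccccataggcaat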

How the data were processed

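RNA of 3 *Mll1KO* and 3 *WT* retina samples had been sequenced as single reads. Per the submitters' notes, the authors aligned reads with STAR 2.0.4b to mm10 and counted them with featureCounts 1.45. With edgeR, version 3.17.9 in the notes, the authors computed RPKM for genes with a CPM above 5 in at least 5 libraries. The authors' fold changes, p-values and FDR stand in the same table and were not used.

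The 11404 lines held 11339 genes, because 59 IDs were repeated with equal values, and 18 symbols turned into dates were restored from gene IDs. Library totals and gene lengths that make each RPKM value a whole number of reads within 0.05 were searched for, which gave whole reads for 100% of genes, with 1 possible length for each of the 10 cone genes. Coordinates and exon overlaps came from GENCODE vM21 of GRCm38.

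The test was limma 3.58.1 in R 4.3.3 on log2(RPKM + 1) with a variance trend, genotype as the only term, and Benjamini-Hochberg adjustment over all genes. It was tested on simulated data. Ratios within a library were compared with two-sided exact permutation tests in Python 3.11.15. Alternatives were pseudocounts of 0.1 and 5, median-of-ratios, TMM and rod-sum scaling, genes with a mean RPKM of at least 1, limma-voom on recovered reads, leaving out each library, and replicate letter as a block.

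The members and lists were chosen with earlier results of these data known. Named genes were the 10 cone genes, 10 rod counterparts, *Kmt2a*, each opsin regulator and thyroid hormone gene past the threshold and the 2 with the largest RPKM in each of these lists, the highest and lowest gene of each other list, genes in the table sharing exon bases with a cone gene, and the 5 genes most like each opsin among genes with a mean RPKM of at least 1. *Xist* and *Thrb* were named after their values were seen. The letters a, b and c name the biological replicates of each genotype. The labels do not pair libraries across genotypes by letter, so the paired and blocked results are a check only. Deviations of genes from their group mean correlated at -0.04, -0.19 and -0.01 between libraries of the same letter. Between libraries of different letters the correlations ran from -0.09 to 0.13.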

Additional observations from a re-analysis of the deposited data

How the results depend on the processing

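Results were recomputed with 1 choice changed at a time. The log2 fold changes of 54 genes, the 53 named by the rule and *Thrb*, all kept their direction and side of the threshold with pseudocounts of 0.1 and 5, with genes of a mean RPKM of at least 1, and with limma-voom on recovered reads. *Opn1sw*, *Opn1mw* and *Arr3* did so under every alternative run. Median-of-ratios and TMM scaling turned *Gnb3* to 0.021 and 0.018. Scaling to the rod counterparts, which is made from genes that themselves differed, gave 9968 called genes and 5 called cone genes in place of 2643 and 8, and turned *Gnat2* to -0.022, *Pde6h* to -0.048, *Cnga3* to -0.023, *Sag* to -0.14, *Gnb1* to -0.11, *Pde6b* to -0.24, *Pde6g* to -0.11, *Cnga1* to -0.071, *Cngb1* to -0.28, *Nrl* to -0.10, *Rd3* to -0.32, *Kcne2* to -0.15, *Rgs11* to -0.21, *Rdh5* to -0.12 and *Thrb* to -0.25. The cause of each was not tested.

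Leaving out each library, with fewer samples in the fit, gave from 1704 genes called (without *WT* sample b) to 2536 (without *Mll1KO* sample a), and from 6 to 8 cone genes. Of 324 values, 296 kept direction and side of the threshold, 21 lost the call, 2 gained it and 5 reversed. The reversals were in *Gnb3* (from -0.043 to 0.0091), *Rd3* (from -0.059 to 0.093) and *Rdh5* (from -0.033 to 0.31). Among ratios, *Pde6c* to *Pde6a* ranged from -0.051 to 0.027 and *Cnga3* to *Cnga1* from -0.036 to 0.093. With replicate letter as a block, 2242 genes and 7 cone genes were called, and the *Opn1sw* to *Opn1mw* difference stayed at -1.01 (exact permutation p = 0.25, the smallest for 3 pairs). The count without *Mll1KO* sample b for X-linked genes was chosen after seeing the data. For *Cngb3*, with 236 reads at the fewest, the spread between samples exceeded the counting error. Counting error is only a part of the spread between separate samples, so this does not bear on its call.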
